A study of Homo sapiens with 6 samples.

Results

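The genes described here encode the RNA-binding proteins and core particles of pre-mRNA splicing: the SR proteins (SRSF), the heterogeneous nuclear ribonucleoproteins or hnRNPs (HNRNP), the SF3A, SF3B and U2AF factors of 3′ splice site recognition, the PRPF factors, and the SNRP proteins of the small nuclear ribonucleoproteins. They were picked out by a rule on gene symbols. It takes all genes whose name is built on SRSF, HNRNP, SF3A, SF3B, U2AF, PRPF or SNRP. Left out were 36 names in the form of a pseudogene (ending in P and a number). The rule gave 70 of the 33707 genes in the table: 12 SR proteins, 22 hnRNPs, 11 SF3 and U2AF factors, 13 PRPF factors and 12 SNRP proteins. The rule itself reads symbols and no measured value, but it was chosen with earlier results of these data known. HNRNPA2B1, SNRNP70 and other splicing genes whose symbols differ in form fall outside the rule and are given beside the members as partners.

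RNA was taken at day 2 from Huh7, an established cell line of human hepatocellular carcinoma, transfected with miR-361-3p mimics, a synthetic form of that microRNA, or with mimics-NC, the negative control mimic. There were 3 libraries per group, called control library 1 to 3 and mimic library 1 to 3 by their replicate numbers, and all cells were otherwise handled alike: lipid transfection, TRIzol, and a stranded mRNA library kit. The genotype and treatment tags of the mimics-NC libraries speak of wild type cells while the titles say mimics-NC, and the cell line tag of the miR-361-3p library of replicate 3 reads Huh8 while its title says Huh7; both were kept with their titles. Whether the replicates came from different cultures is not stated; the p-values therefore reflect library-to-library spread alone, which may be technical.

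Splicing removes introns through the stepwise assembly of small nuclear ribonucleoproteins on the pre-mRNA. SR proteins mostly bind exonic enhancers and recruit that machinery, while hnRNPs coat nascent transcripts and often silence nearby splice sites, so that the balance between both families sets much of alternative splicing. Many members of both families also regulate their own mRNA through exons that lead to nonsense-mediated decay.

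The microRNA is shown because its seed defines the sites looked for in the members. Its mature sequence from RefSeq (GRCh38.p14, chrX:85903641-85903663, minus strand) is printed 5′ to 3′ with the seed, bases 2 to 8, in capitals.
hsa-miR-361-3p: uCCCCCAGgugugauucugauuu
The matching sites in a 3′ UTR are CTGGGGG (7mer-m8), TGGGGGA (7mer-A1) and CTGGGGGA (8mer). One 3′ UTR per gene was searched on GRCh38 with the GENCODE 29 annotation. The members with such a site that fell or rose were HNRNPF, HNRNPA0 and SRSF8, the last with higher levels under the mimic; their sites are printed with the site in capitals, in the order of HNRNPF (chr10:43386548-43386555, minus strand), HNRNPA0 near the UTR start (chr5:137753027-137753033, minus strand), HNRNPA0 further along (chr5:137747681-137747687, minus strand) and SRSF8 (chr11:95068113-95068119, plus strand).
HNRNPF: aatagaggaagCTGGGGGAcccattttgca
HNRNPA0: tgttttgccctTGGGGGAgccacttctaa
HNRNPA0: ataaatggcagTGGGGGAtgtttcaaagt
SRSF8: gatggaggactTGGGGGAaaaggatcaca
Another 4 members held an 8mer and were not called; they are printed because an 8mer is the longest of these sites: U2AF2 (chr19:55674075-55674082), SF3B3 (chr16:70577245-70577252), SNRPD1 (chr18:21631756-21631763) and SNRPD3 (chr22:24572211-24572218), all on the plus strand.
U2AF2: aggcggCTGGGGGAgggtgggggca
SF3B3: ccctgggagatCTGGGGGAcctgctgtcct
SNRPD1: taattaataagCTGGGGGAataaataactg
SNRPD3: attttgacaccCTGGGGGAtgtcctgggag
A site was present in 11 of the 65 members tested with an annotated 3′ UTR (16.9%), against 2252 of 9485 tested genes (23.7%). An 8mer was present in 5 members (7.69%), against 498 genes (5.25%). The median length of the UTR searched was 778 bases in these members and 1067 in the tested genes, and the shares are not adjusted for length. Of the 10 hnRNPs that fell, 2 held a site, and the other 8, which include those with the larger falls, held none in the UTR searched. A matched letter string is a description and not a measured target.

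Levels are given as RPKM, the reads of a gene divided by its length in kilobases and scaled to a library of 1000000 assigned reads. Genes averaging 1 RPKM or more were tested with limma on log2(RPKM + 0.5), two-sided, with Benjamini-Hochberg adjustment over all 13158 genes tested; a gene is said to rise or fall where the adjusted p is under 0.05, and a log2 fold change is miR-361-3p mimics over mimics-NC on that scale. The libraries held 35020139 to 52977132 assigned reads, so that 1 RPKM in a gene of 2 kilobases rests on 70.0 to 106 reads. Over all genes tested, 1539 rose (11.7%) and 1296 fell (9.85%). The levels of the hepatoma markers did not pass the test in either direction (0 of 14 tested rose or fell). Of these, 3 had an unadjusted p under 0.05 (limma), and limma-voom called 2 up and 2 down. FGB, a fibrinogen chain, was at 2106 and 1947 RPKM. ALB, AFP and TTR were far below FGB, at mimics-NC means of 52.4, 1.24 and 0.271 RPKM. Of 14 markers of immune, endothelial and fibroblast cells, 2 reached the filter and neither was called.

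Of the 70 members, 67 were tested. HNRNPCL1, HNRNPCL2 and HNRNPCL4, HNRNPC-like genes, stayed between 0 and 0.0952 RPKM in every library. Among the 67, 14 fell (20.9%) and 5 rose (7.46%), and 48 were not called. The median log2 fold change of the members was -0.05, against 0.01 over all genes tested. The groups did not overlap, with the mimic lower, for 23 of the 67 members, where the share over all genes tested was 19.1%. With the mimic higher it was 10 of the 67 members, where the share over all genes tested was 22.3%. In either direction the groups did not overlap for 41.4% of all genes tested. The members were measured with less spread than most genes: their median coefficient of variation was 3.51% in mimics-NC and 2.76% with the mimic, against 5.22% and 5.30% over all genes tested. In bulk RNA, fewer cells of a type and less RNA per cell cannot be told apart.

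**Figure D1:**
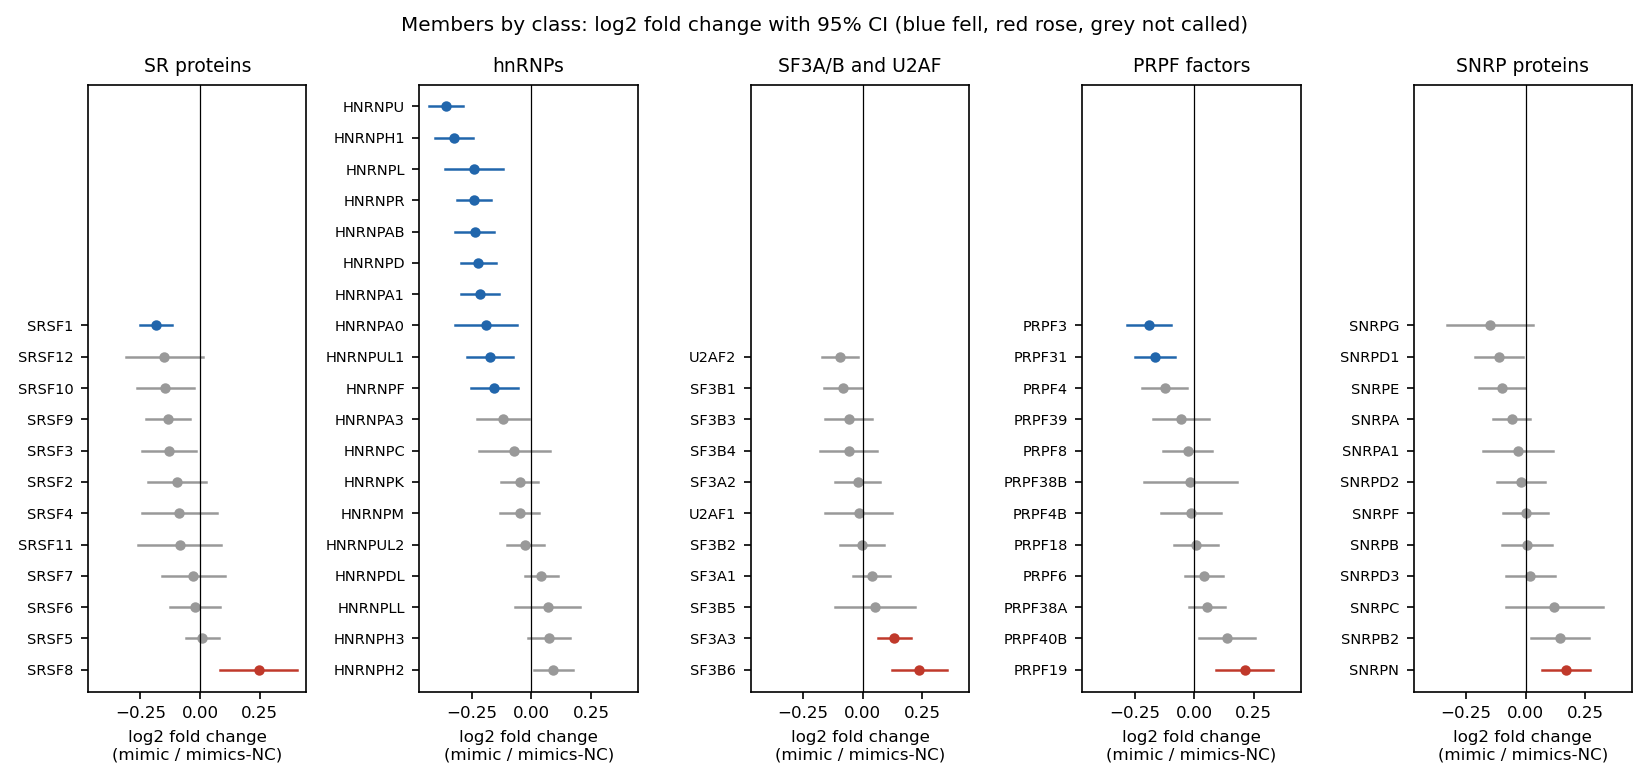
Log2 fold change of the tested members, 1 PRPF gene not plotted, miR-361-3p mimics over mimics-NC, with its 95% confidence interval, in 5 panels by class; blue members fell, red members rose, grey members were not called. The falls gather in the hnRNP panel, where 10 of 19 members are blue and none is red.

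The classes differed in their counts. Of the 19 hnRNPs tested, 10 fell (52.6%) and 0 rose, against the 9.85% that fell and 11.7% that rose among all genes. Their median log2 fold change was -0.15. Of these hnRNPs, 12 had an unadjusted p under 0.05 (limma), and limma-voom called 11 falls and 0 rises. Their median coefficient of variation was 2.11% in mimics-NC and 2.23% with the mimic, against 5.22% and 5.30% over all genes. Smaller changes can pass at a lower spread, so the shares are not measured alike. The SF3 and U2AF factors, with 0 falls, had 2.08% and 3.05%. How far spread adds to the count was not tested. Of the 12 SR proteins, 1 fell and 1 rose (8.33% each), with a median of -0.09. Of the 11 SF3 and U2AF factors, 2 rose (18.2%) and 0 fell. Median-of-ratios scaling called 1 fall, and 4 members had an unadjusted p under 0.05 (limma). Of the 13 PRPF factors, 3 fell (23.1%) and 1 rose (7.69%). Of the 12 SNRP proteins 1 rose (8.33%) and 0 fell (limma-voom called 1 fall, and 4 had an unadjusted p under 0.05, limma). No test of the difference between classes was made.

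HNRNPU, also known as SAF-A, a nuclear scaffold protein that binds RNA and chromatin, had 161.3, 161.5 and 161.3 RPKM in mimics-NC and 124.1, 125.9 and 127.5 with the mimic. All 3 mimic libraries lay far below the control libraries, which were nearly equal. Its log2 fold change was -0.36 (SE 0.03, adjusted p = 0.000535, limma), a fall of the mean by 22.0%. HNRNPU (chr1:244840638-244864542, minus strand) shares 3502 exonic bases, 25.8% of its counted length, with COX20 on the opposite strand, and no source names the strand setting of the counting. COX20, a cytochrome oxidase assembly factor, was at 22.8 RPKM in mimics-NC and 24.2 with the mimic and was not called (adjusted p = 0.152, limma).

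HNRNPH1, which binds G-rich tracts and regulates exons beside them, had 197, 196.6 and 201.8 RPKM in mimics-NC and 162.5, 156.7 and 155.6 with the mimic. The groups were well apart, with every mimic library lower. Its log2 fold change was -0.33 (SE 0.03, adjusted p = 0.00114, limma). HNRNPF, its close relative with the 8mer printed above, had 127.9, 118.6 and 117.8 RPKM against 110.9, 109.1 and 107.0 with the mimic, again without overlap though with a higher first control library. Its log2 fold change of -0.15 passed the test (adjusted p = 0.0388, limma) and did not pass with any 1 of the 6 libraries left out (adjusted p up to 0.12, and 0.102 without the filter on low values). HNRNPH2 and HNRNPH3, the other relatives of this family, did not pass: HNRNPH2 was at 124.5 ± 2.16 and 132.7 ± 3.71 RPKM (SD, n = 3; log2 fold change 0.09, adjusted p = 0.107, limma) and HNRNPH3 at 129.7 ± 4.05 and 136.5 ± 2.80 RPKM (0.07, adjusted p = 0.197, limma). HNRNPF, HNRNPH2 and HNRNPH3 were named after their values were seen, as relatives of HNRNPH1. HNRNPH2 shares 362 exonic bases with the readthrough gene RPL36A-HNRNPH2.

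HNRNPA1, which binds exonic and intronic silencers and opposes SR proteins at many exons, was the most abundant member, with 551.6, 550.7 and 557.2 RPKM in mimics-NC and 476.2, 485.2 and 468.3 with the mimic. The groups were apart, with the mimic libraries lower. The log2 fold change was -0.21 (SE 0.03, adjusted p = 0.00558, limma). HNRNPA1 has 54 pseudogene rows in the table, which held 1.44% to 1.67% of the reads of gene and copies together.

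HNRNPA2B1, its partner in hnRNP core particles and outside the symbol rule, also fell, from 662 ± 12.2 to 589.7 ± 12.4 RPKM (log2 fold change -0.17, adjusted p = 0.0202, limma). Its call was lost under quantile normalization (adjusted p = 0.344) and with control library 2, control library 3 or mimic library 3 left out (up to 0.0845). HNRNPA3, of the same A/B family and named after its values were seen, was at 266.7 ± 11.7 and 245.5 ± 8.90 RPKM with overlapping groups, and did not pass (log2 fold change -0.12, adjusted p = 0.112, limma). HNRNPA0, a low member that binds AU-rich RNA and holds 2 of the printed sites, had 2.60, 2.41 and 2.51 RPKM against 2.19, 2.09 and 2.12 with the mimic. Its groups did not overlap, and its fall (log2 fold change -0.19, adjusted p = 0.0470, limma) did not pass with any 1 of the 6 libraries left out (adjusted p up to 0.122, and 0.106 without the filter on low values).

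HNRNPAB, related to the A/B proteins, had 295.8, 287.5 and 284.0 RPKM in the mimics-NC libraries and 242.1, 250.4 and 243.0 with the mimic. HNRNPD, or AUF1, which binds AU-rich elements and regulates mRNA decay, had 124.0, 122.0 and 122.8 RPKM against 108.0, 104.2 and 103.8. Both genes were lower in every mimic library than in any control library. The log2 fold changes were -0.24 for HNRNPAB (adjusted p = 0.00406) and -0.22 for HNRNPD (adjusted p = 0.00390, limma). HNRNPDL, the D-like relative named after its values were seen, was at 74.7 ± 0.200 and 76.9 ± 1.08 RPKM and was not called (log2 fold change 0.04, adjusted p = 0.351, limma).

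HNRNPR, a relative of SYNCRIP, had 82.2, 79.7 and 82.0 RPKM in the mimics-NC libraries and 68.1, 68.6 and 69.4 with the mimic. HNRNPL, which binds CA repeats, had 16.9, 14.98 and 15.7 RPKM against 13.0, 13.7 and 13.3. Neither gene's groups overlapped, and the control libraries of HNRNPL were the more scattered. HNRNPL shares 561 exonic bases, 8.22% of its counted length, with the same-strand row AC104534.3, and its reads there cannot be told apart from that row's. AC104534.3 was at 141.6, 137.2 and 135.2 RPKM in mimics-NC and 134.7, 139.1 and 134.0 with the mimic. The log2 fold changes were -0.24 for HNRNPR (adjusted p = 0.00247) and -0.24 for HNRNPL (adjusted p = 0.0177, limma); HNRNPL did not pass with mimic library 1 or 3 left out (up to 0.0566) or without the filter on low values (0.0519). HNRNPUL1, an HNRNPU-like protein tied to the DNA damage response and named after its values were seen, fell from 32.4 ± 1.40 to 28.7 ± 0.513 RPKM (log2 fold change -0.17, adjusted p = 0.0250, limma); with a library left out it passed in the 1 fit without control library 3 (up to 0.0812 in the others, and 0.0598 without the filter on low values).

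The other abundant hnRNPs, listed here after their values were seen, were not called and their groups overlapped. HNRNPC, which binds U tracts, was at 94.6 ± 4.81 and 90.1 ± 6.83 RPKM. HNRNPK, a KH-domain protein that binds C-rich RNA, was at 146.9 ± 1.10 and 141.9 ± 3.65 RPKM. HNRNPM was at 269.2 ± 7.50 and 260.1 ± 1.48 RPKM, and HNRNPUL2 at 63.1 ± 0.816 and 62.0 ± 1.48 RPKM (SD, n = 3 each). Their adjusted p-values ran from 0.319 to 0.617 (limma). The summed level of the 22 hnRNPs was 2752 ± 9.15 RPKM in mimics-NC and 2483 ± 16.3 RPKM with the mimic, a change of -9.78%, and HNRNPA1 alone made up 19.7% of that sum. Each of the 3 mimic sums was below each control sum. The sums are descriptions, with no test.

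**Figure D2:**
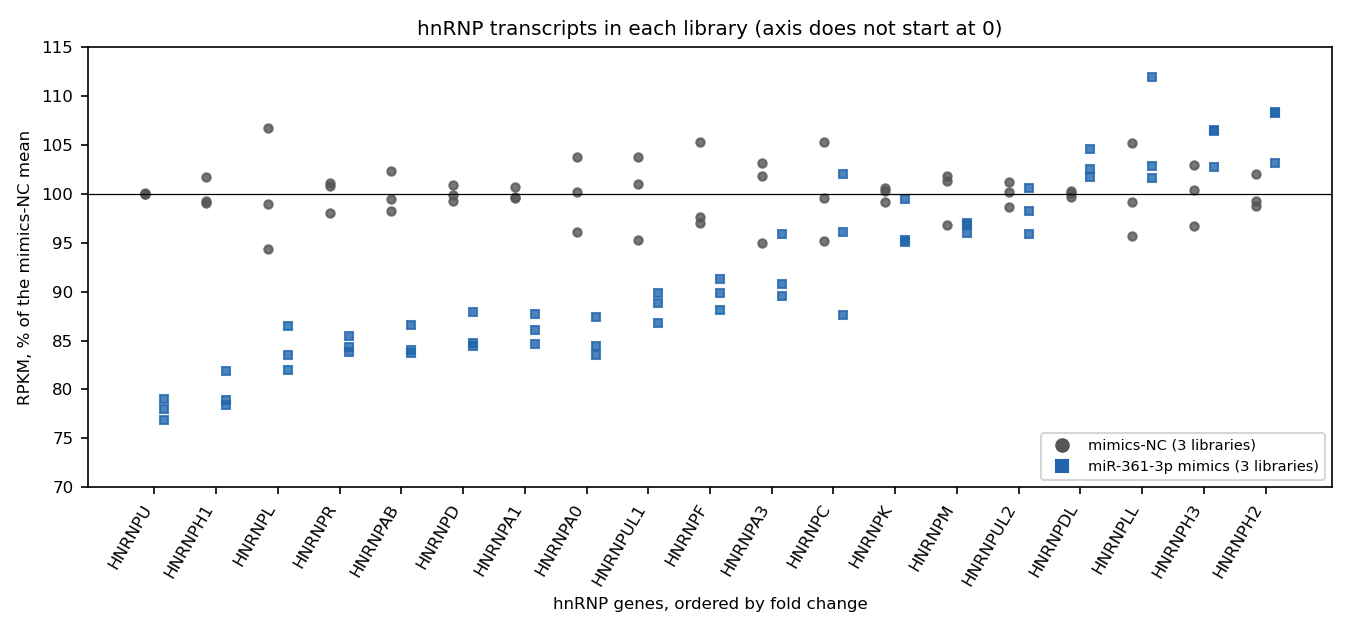
RPKM of each tested hnRNP gene in each library as a percentage of its mimics-NC mean; circles are the 3 mimics-NC libraries and squares the 3 miR-361-3p libraries, ordered by fold change, on an axis that does not start at 0. For the 10 genes at the left, which fell, no square reaches a circle, while HNRNPDL and HNRNPH2 at the right have all squares above the circles without being called.

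Upstream DNA of HNRNPU, HNRNPH1 and HNRNPL is shown because these 3 hnRNPs had the largest falls; it covers the 250 bases before the RefSeq start (GRCh38.p14), 5′ to 3′ on the gene's strand, with each CCAAT motif, on either strand, in capitals. The windows are chr1:244864544-244864793 for HNRNPU, chr5:179634785-179635034 for HNRNPH1 and chr19:38852348-38852597 for HNRNPL, all on the minus strand.
HNRNPU: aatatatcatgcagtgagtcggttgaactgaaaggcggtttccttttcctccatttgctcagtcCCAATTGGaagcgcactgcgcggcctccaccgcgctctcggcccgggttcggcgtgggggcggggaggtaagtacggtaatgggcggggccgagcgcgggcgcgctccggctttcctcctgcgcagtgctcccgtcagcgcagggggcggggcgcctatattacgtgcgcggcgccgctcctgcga
HNRNPH1: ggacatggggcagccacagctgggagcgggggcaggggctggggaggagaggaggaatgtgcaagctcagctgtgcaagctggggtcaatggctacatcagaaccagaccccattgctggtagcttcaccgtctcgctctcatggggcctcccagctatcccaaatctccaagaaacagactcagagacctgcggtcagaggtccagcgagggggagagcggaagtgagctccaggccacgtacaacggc
HNRNPL: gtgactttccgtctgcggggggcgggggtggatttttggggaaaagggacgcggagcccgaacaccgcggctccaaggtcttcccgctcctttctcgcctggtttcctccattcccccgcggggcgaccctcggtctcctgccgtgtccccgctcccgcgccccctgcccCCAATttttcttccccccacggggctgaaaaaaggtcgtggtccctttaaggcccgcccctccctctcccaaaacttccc
In HNRNPU a CCAAT on each strand overlaps the other, HNRNPL holds 1 and HNRNPH1 holds none. The letters CCAAT, searched on both strands, were present in 14 of 21 hnRNP windows (66.7%) and in 6 of 9 PRPF windows (66.7%). They were present in 27 of 62 member windows (43.5%), against 9021 of 27305 windows of the same length in all (33.0%). The 21 include the untested HNRNPCL1, HNRNPCL2 and HNRNPCL4, of which HNRNPCL1 and HNRNPCL2 held the letters. Among the hnRNPs, 6 of the 9 matched genes that fell held it and 6 of the 9 matched genes that were not called. The E-box CACGTG was present in 6 of 21 hnRNP windows (28.6%), against 6.49% of all windows; 1 of the 9 matched hnRNPs that fell and 5 of the 9 not called held it. These shares are descriptions, with no test. The ETS core CCGGAAG was present in 7 of 10 SF3 and U2AF windows and 7 of 11 SNRP windows, against 8.82% of all windows. No factor binding was measured.

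Among the SR proteins, SRSF1, the founding member, which binds exonic enhancers and also acts in translation, had 114.7, 115.7 and 114.6 RPKM in mimics-NC and 101.5, 101.6 and 100.02 with the mimic. Both groups were tight and did not overlap, with the mimic lower. Its log2 fold change was -0.19 (SE 0.03, adjusted p = 0.00528, limma). SRSF1 (chr17:58003360-58007346, minus strand) shares 331 exonic bases with the same-strand row RP11-159D12.5, and its reads there cannot be told apart from that row's. It also shares 440 exonic bases, 13.2% of its counted length, with RP11-159D12.6 on the opposite strand.

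SRSF8, an expressed retrotransposed copy related to SRSF2, had 1.90, 1.85 and 1.96 RPKM in mimics-NC and 2.55, 2.32 and 2.17 with the mimic. All 3 mimic libraries were higher, and they were more scattered than the controls. It rose with a log2 fold change of 0.25 (SE 0.07, adjusted p = 0.0424, limma), and of the 6 fits with a library left out it passed in the 1 without mimic library 3 (adjusted p up to 0.116 in the others, and 0.113 without the filter on low values). SRSF11, the most abundant SR gene, which codes for a U2AF-associated SR protein, was at 141.6 ± 10.98 and 133.4 ± 10.2 RPKM (SD, n = 3) with overlapping groups, and was not called (log2 fold change -0.09, adjusted p = 0.446, limma).

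The remaining 9 SR genes were not called, with log2 fold changes from -0.15 to 0.01. After their values were seen, 3 of them were picked out because the mimic libraries lay below all controls. SRSF9 was at 51.1 ± 2.02 and 46.5 ± 0.918 RPKM (adjusted p = 0.0524, limma). SRSF10, which represses splicing when dephosphorylated, was at 26.6 ± 1.73 and 23.95 ± 0.514 RPKM (adjusted p = 0.0844), and SRSF3, one of the smallest SR proteins, at 32.6 ± 1.72 and 29.7 ± 1.04 RPKM (adjusted p = 0.101, limma). SRSF9 was called lower under median-of-ratios scaling, quantile normalization and limma-voom. The summed SR level was 571 ± 8.88 RPKM in mimics-NC and 534 ± 10.2 RPKM with the mimic, a change of -6.43%.

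The SF3A and SF3B complexes belong to the U2 particle and hold the branch point, and U2AF reads the polypyrimidine tract and the AG of the 3′ splice site. SF3B6, the subunit also called p14 that contacts the branch point adenosine, had 40.6, 36.2 and 37.7 RPKM in mimics-NC and 43.7, 45.2 and 46.2 with the mimic. SF3A3, a subunit of SF3A and the most abundant gene of this class, had 93.4, 95.2 and 94.2 RPKM against 102.8, 104.2 and 103.0. Both were higher in every mimic library than in any control library. SF3B6 rose with a log2 fold change of 0.24 (adjusted p = 0.0158) and SF3A3 with 0.13 (adjusted p = 0.0196, limma). With control library 2, control library 3 or mimic library 3 left out neither passed (SF3B6 up to 0.0569, SF3A3 up to 0.0670), and SF3A3 also did not pass without mimic library 2.

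The other 9 genes of this class had log2 fold changes from -0.10 to 0.05 and were not called. U2AF2, the large U2AF subunit with an 8mer in its 3′ UTR, was at 71.2 ± 1.48 and 66.6 ± 0.982 RPKM (log2 fold change -0.10, adjusted p = 0.0734, limma), and SF3B1, the scaffold of SF3B and a frequent target of cancer mutations, was at 50.2 ± 1.30 and 47.3 ± 0.650 RPKM (-0.08, adjusted p = 0.120); both were named after their values were seen. In each of these genes the mimic libraries lay below the controls. U2AF1, the small subunit, was at 25.6 ± 1.46 and 25.3 ± 1.61 RPKM with overlapping groups. The summed level of the class was 431 ± 5.06 RPKM in mimics-NC and 439 ± 6.85 RPKM with the mimic.

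The PRPF factors act at several stages. PRPF3, a component of the U4/U6 particle, had 23.9, 25.6 and 24.6 RPKM in mimics-NC and 21.4, 22.3 and 21.3 with the mimic. PRPF31, which bridges U4/U6 and U5 and was the most abundant PRPF gene, had 109.1, 112.8 and 108.2 RPKM against 97.4, 101.4 and 95.8. In both genes every mimic library was below every control library. The log2 fold changes were -0.19 (adjusted p = 0.0160) for PRPF3 and -0.16 (adjusted p = 0.0201, limma) for PRPF31. Each passed in 3 of the 6 fits with a library left out: the call of PRPF3 and of PRPF31 was lost without control library 2, mimic library 1 or mimic library 3 (up to 0.0589 and 0.0736). PRPF31 also lost its call without the filter on low values (adjusted p = 0.0513, limma).

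PRPF19, the ubiquitin ligase that names the PRP19 complex, moved the other way, with 11.3, 10.5 and 11.7 RPKM in mimics-NC and 13.5, 12.9 and 12.7 with the mimic. Its mimic libraries were all higher. It rose with a log2 fold change of 0.21 (adjusted p = 0.0259, limma) and, with a library left out, passed in the 1 fit without control library 3 (adjusted p up to 0.0773 in the others, and 0.0694 without the filter on low values). The other 9 PRPF genes were not called, with log2 fold changes from -0.12 to 0.14; among them, named after their values were seen, PRPF8, the large protein at the heart of the U5 particle, was at 22.4 ± 0.871 and 21.9 ± 0.765 RPKM, with overlapping groups. PRPF38B was the most scattered PRPF gene, with 59.9, 74.7 and 69.4 RPKM in the mimics-NC libraries. The summed PRPF level was 555 ± 8.65 RPKM in mimics-NC and 530.4 ± 6.36 RPKM with the mimic.

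The SNRP genes code for the Sm ring shared by the spliceosomal particles and for U1 and U2 proteins. SNRPN, the Sm protein of an imprinted locus that is expressed most in brain, had 19.98, 19.2 and 20.5 RPKM in mimics-NC and 22.9, 22.9 and 21.4 with the mimic. The groups did not overlap, with the mimic higher. It rose with a log2 fold change of 0.17 (adjusted p = 0.0316, limma) and, with a library left out, passed in the 1 fit without mimic library 3 (adjusted p up to 0.0997 in the others, and 0.0731 without the filter on low values). SNRPN (chr15:24823637-24978723, plus strand) shares 814 exonic bases, 27.8% of its counted length, with SNURF, a same-strand gene on the same transcript. SNURF was at 46.3 and 52.3 RPKM and also rose (log2 fold change 0.17, adjusted p = 0.0292, limma). On the same strand SNRPN shares 541 exonic bases (18.5%) with RP11-701H24.9 and 141 (4.81%) with SNHG14. Its reads in shared bases cannot be told apart from those of the other rows.

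SNRPC, a U1-specific protein that stabilizes pairing with the 5′ splice site, had the highest mean of the SNRP genes over all 6 libraries (185.4 RPKM, beside 184.0 for SNRPB, which was the higher of both in mimics-NC), with 157.1, 180.3 and 196.4 RPKM in mimics-NC and 207.8, 186.1 and 184.9 with the mimic. The groups overlapped and the control libraries were widely spread. It was not called (log2 fold change 0.12, adjusted p = 0.359, limma). The Sm genes SNRPB, SNRPD1, SNRPD2, SNRPD3, SNRPE, SNRPF and SNRPG were not called, with log2 fold changes from -0.15 to 0.02. SNRPD1 and SNRPE, picked out after their values were seen, had mimic libraries below all controls. SNRPD1 was at 64.8 ± 2.42 and 59.98 ± 2.09 RPKM and SNRPE at 45.5 ± 1.60 and 42.4 ± 1.38 RPKM (adjusted p = 0.104 and 0.129, limma). SNRPB2, picked out likewise, had mimic libraries above all controls, at 9.02 ± 0.440 and 10.02 ± 0.450 RPKM (adjusted p = 0.0922, limma). Of the 12 SNRP genes, 6 had a log2 fold change above 0 and 6 below. The summed SNRP level was 809 ± 22.7 RPKM in mimics-NC and 814 ± 23.0 RPKM with the mimic, with overlapping libraries.

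**Figure D3:**
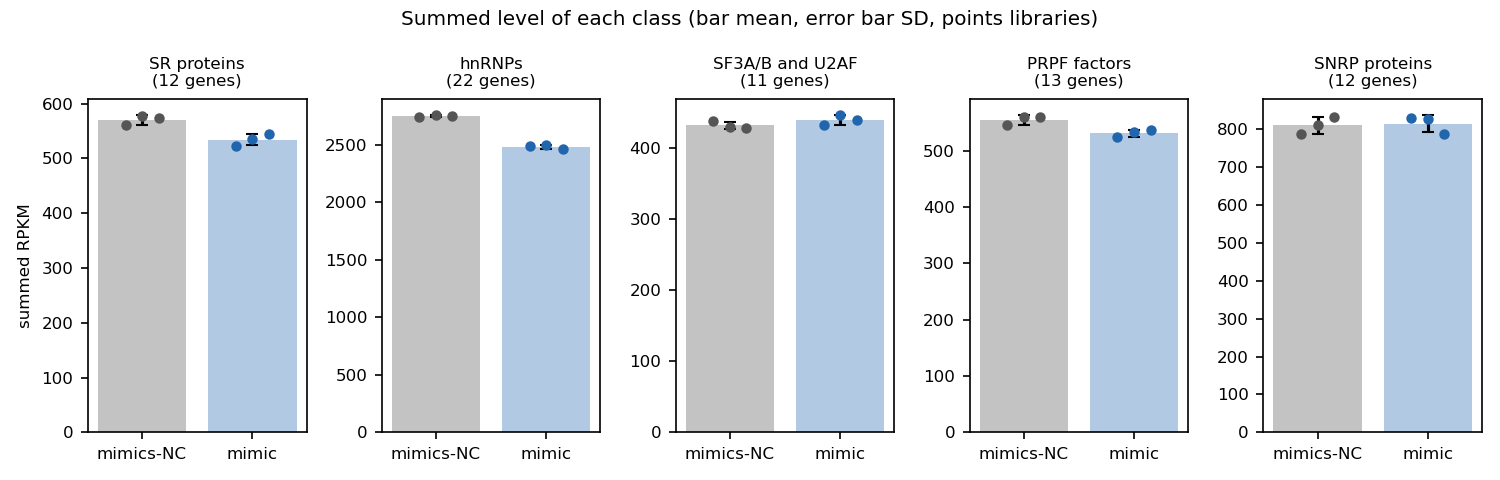
Summed RPKM of each class; bars are means of 3 libraries, error bars the SD and points the libraries, with each axis starting at 0. The hnRNP sum went from 2752 to 2483 RPKM with no overlap, while the SF3 and U2AF sum and the SNRP sum have overlapping libraries.

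The ratio between related genes often differed between the groups, and a ratio within each library needs no scaling between libraries. The ratio of HNRNPH1 to HNRNPH2 was 1.55, 1.60 and 1.63 in mimics-NC and 1.21, 1.16 and 1.21 with the mimic. The ratio of HNRNPD to HNRNPDL was 1.65, 1.64 and 1.64 against 1.42, 1.33 and 1.35. The mimic ratios lay below every control ratio in both pairs. The same held for HNRNPH1 over HNRNPH3 (means of 1.53 and 1.16), HNRNPH1 over HNRNPF (1.64 and 1.45), HNRNPL over HNRNPLL (4.41 and 3.53), HNRNPUL1 over HNRNPUL2 (0.513 and 0.462), SRSF2 over SRSF8 (5.39 and 4.07), SNRPB over SNRPN (9.24 and 8.23) and SNRPA over SNRPB2 (2.49 and 2.15). The ratios overlapped between groups for HNRNPA1 over HNRNPA3, SRSF1 over SRSF9, SRSF3 over SRSF7, SRSF4 over SRSF6, SRSF10 over SRSF12, PRPF38A over PRPF38B and U2AF1 over U2AF2. HNRNPH1 and HNRNPF both fell, so their ratio shows a difference in size alone. The pairs were chosen with the values known, so these ratios are descriptions with no test. How often the ratio of any other genes lies apart was not computed. For levels of single genes it was 41.4% of all genes tested.

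**Figure D4:**
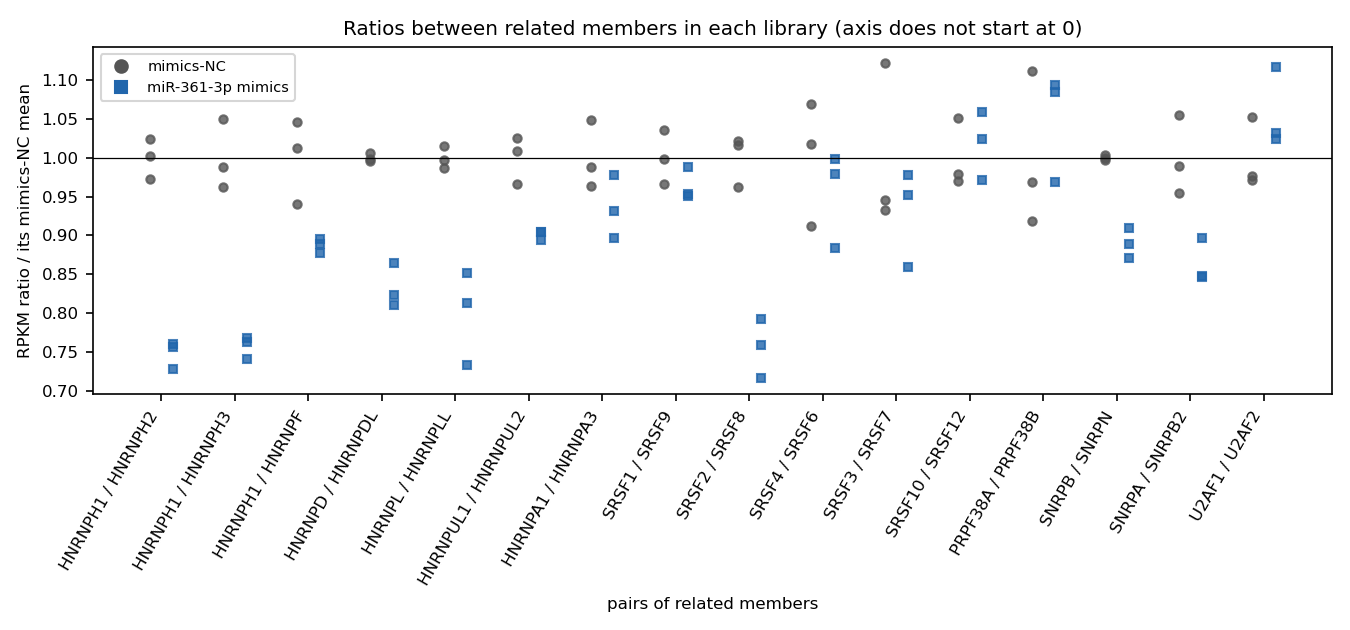
RPKM ratio of the described pairs of related members in each library, divided by the pair's mimics-NC mean; circles are mimics-NC and squares miR-361-3p mimics, on an axis that does not start at 0. The squares lie below all circles for HNRNPH1 over HNRNPH2, where the mean ratio went from 1.59 to 1.19, and overlap the circles for SRSF1 over SRSF9.

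Partners of the members were counted in 8 further gene lists. Over all genes tested, 9.85% fell and 11.7% rose. Of 38 other RNA-binding splicing regulators tested, 11 fell (28.9%) and 0 rose, with a median log2 fold change of -0.06. An unadjusted p under 0.05 was found for 18 of them (limma), and limma-voom called 2 rises. KHSRP, a KH-domain protein of splicing and AU-rich mRNA decay, had 30.9, 30.9 and 30.9 RPKM in mimics-NC and 20.02, 20.1 and 19.6 with the mimic (log2 fold change -0.62, adjusted p = 0.000116, limma). KHDRBS1, or SAM68, had 48.4, 47.2 and 48.6 RPKM against 33.2, 31.4 and 32.4 (-0.57, adjusted p = 0.000290). In both genes the groups were wide apart, and their falls were larger than that of any member. MBNL3, a muscleblind splicing regulator, fell from 1.76 to 1.31 RPKM (adjusted p = 0.0203, limma); its call was lost without control library 1 or 3 or mimic library 1 or 2 (up to 0.0696). Other genes of the list that fell were RBMX, SFPQ, MATR3, ILF2, DAZAP1, TARDBP and ELAVL1.

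Of 20 SR-like factors and SR protein kinases tested, 4 fell and 0 rose (6 with an unadjusted p under 0.05; limma-voom called 6 falls and 0 rises). They were SRRM1, an SR-related coactivator (29.5 to 24.3 RPKM, adjusted p = 0.00487), TRA2B, an enhancer-binding SR-like protein (12.6 to 10.4, adjusted p = 0.00603), and the kinases CLK2 (15.1 to 12.9, adjusted p = 0.0143) and SRPK1 (27.4 to 24.7, adjusted p = 0.0389, limma). CLK2 was lost without mimic library 3 (0.0504), and SRPK1 without any 1 library other than mimic library 3 (up to 0.104). Of 17 partners in U1, U2 and branch point recognition, 5 fell (29.4%) and 1 rose (5.88%). RBM17, which binds U2 factors at the 3′ splice site, fell from 53.6 to 40.6 RPKM (log2 fold change -0.40, adjusted p = 0.000461), and PHF5A, a small subunit of SF3B, rose from 29.6 to 36.9 RPKM (0.31, adjusted p = 0.00346, limma). SNRNP70, the U1-70K protein, fell from 94.0 to 81.8 RPKM (adjusted p = 0.0307, limma); with a library left out, it passed only without control library 3 or mimic library 2 (up to 0.0952 otherwise).

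Of 32 PRP19 complex, catalytic and disassembly factors, 6 rose (18.8%) and 5 fell (15.6%), with a median of 0.01. Over all genes tested, 11.7% rose and 9.85% fell. RBMX2, a factor of the activated spliceosome, fell from 25.8 to 15.7 RPKM (log2 fold change -0.70, adjusted p = 0.000596), and CWC27, a cyclophilin-type protein of the spliceosome, from 32.1 to 22.5 RPKM (-0.50, adjusted p = 0.000535). WBP4, which binds proline-rich splicing factors, rose from 9.48 to 13.0 RPKM (0.43, adjusted p = 0.00241), and PLRG1, a core PRP19 complex protein, from 8.77 to 10.9 RPKM (0.30, adjusted p = 0.00378, limma). Of 21 tri-snRNP and minor spliceosome genes, 1 fell (4.76%) and 0 rose, and 3 had an unadjusted p under 0.05 (limma). Limma-voom called 1 fall and 0 rises. The gene that fell was SNRNP25, of the minor spliceosome, at 9.80 and 7.80 RPKM (adjusted p = 0.00428, limma). Of 13 LSM genes, 1 fell (7.69%) and 0 rose, and 2 had an unadjusted p under 0.05 (limma). With limma-voom 1 LSM fall and 0 rises were called. The LSM gene that fell was LSM14B, an mRNA-binding LSM protein, at 16.9 and 13.2 RPKM (adjusted p = 0.00861, limma).

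Of 17 genes of the SMN complex and Sm protein methylation, 1 rose (5.88%) and 0 fell, against 11.7% and 9.85% of all genes tested. Of these 17, 5 had an unadjusted p under 0.05 (limma), and limma-voom called 2 of each direction. The gene that rose was SNUPN, which imports the particles into the nucleus, at 10.9 and 12.7 RPKM (adjusted p = 0.00674, limma). Of 21 genes of the exon junction complex, export and nonsense-mediated decay, 3 fell (14.3%) and 1 rose (4.76%). UPF1, the helicase of nonsense-mediated decay, fell from 8.77 to 7.11 RPKM (adjusted p = 0.00763), and THOC1 of the export complex TREX from 15.9 to 13.7 RPKM (adjusted p = 0.0197, limma). ALYREF, an export adaptor, had 33.0, 32.6 and 23.6 RPKM in mimics-NC and 19.6, 20.02 and 19.3 with the mimic (adjusted p = 0.0177, limma). THOC5, of the same complex as THOC1, rose from 13.3 to 14.7 RPKM (adjusted p = 0.0341, limma). The call of ALYREF was lost without control library 2 or mimic library 3 (up to 0.0597), that of THOC1 without control library 3 or mimic library 3 (up to 0.0674), and that of THOC5 without any 1 library other than mimic library 3 (up to 0.0979).

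**Figure D5:**
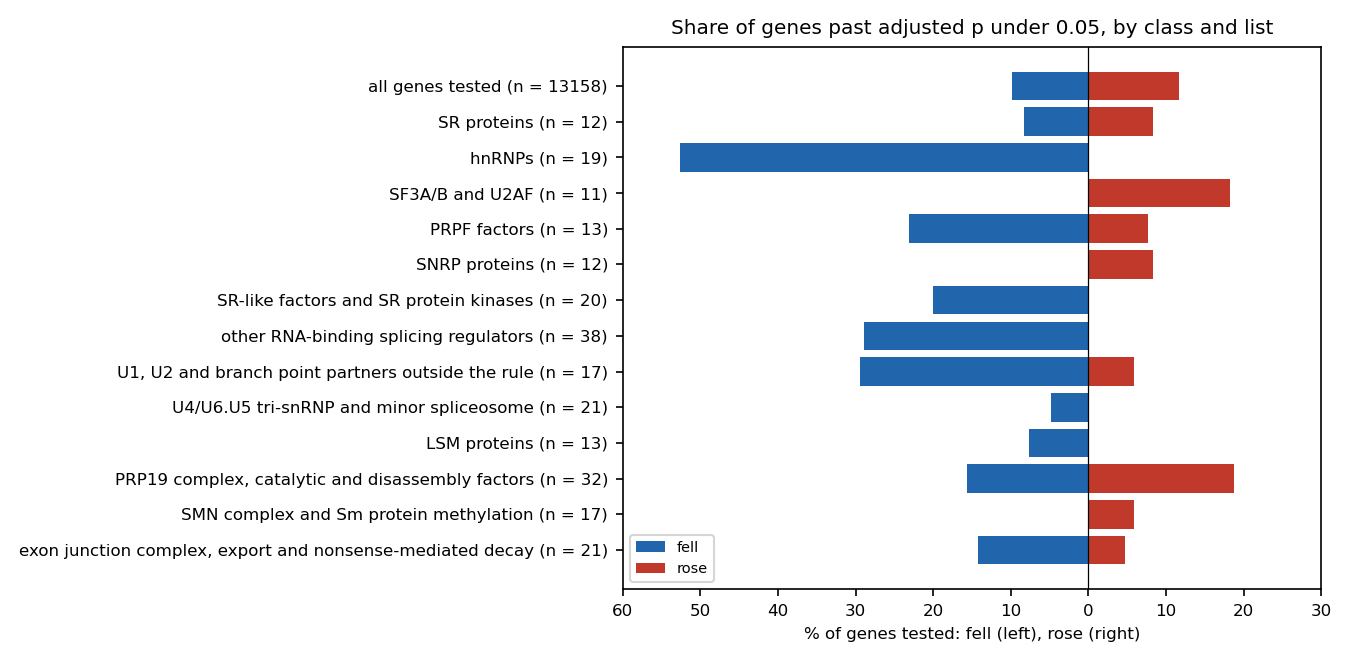
Share of tested genes in each class and list that fell (left, blue) or rose (right, red) at an adjusted p under 0.05, with the number tested in the labels. Among the hnRNPs 52.6% fell, against 9.85% of all 13158 genes, while the PRP19 list shows both directions. The hnRNPs also had less spread between libraries than all genes tested.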

How the data were processed

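The authors deposited 1 table of RPKM for 33707 genes in 6 libraries, with each gene's length in bases and GRCh38 position. Per the submitters' processing notes, reads were handled with featureCounts (Subread 1.5.1), edgeR 3.12.1 and Trimmomatic 0.36; no aligner, annotation or strand setting is named in those sources. RPKM times length gave whole reads for 100% of values (within 0.01). Genes averaging 1 RPKM or more entered a limma 3.58.1 fit (R 4.3.3, intensity trend) on log2(RPKM + 0.5), and adjusted by Benjamini-Hochberg; the script was tested on simulated data. The added 0.5 understates the change of low genes. Alternatives were another pseudocount, no filter, median-of-ratios scaling, quantile normalization, limma-voom on the recovered reads, a replicate block and each library left out.

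Named by rule were, in each class, up to 8 called members by size of change, the most abundant member, and the most abundant members to make 2 where fewer were called, and up to 4 called genes of each other list. Some genes that the rule names are counted but not reported here. The members and lists were chosen with earlier results of these data known. Sites were searched in 1 GENCODE 29 transcript per gene, and promoters and the microRNA come from RefSeq (GRCh38.p14).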

Additional observations from a re-analysis of the deposited data

How the results depend on the processing

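All 19 member calls held under both other pseudocounts, both other scalings and limma-voom, and none of these 19 changed sign in any alternative run. Uncalled members with changes near 0 did change sign with a library left out, such as SRSF7 (log2 fold change -0.07 to 0.01) and U2AF1 (-0.07 to 0.03). Of the 14 falls, 7 were called in all 13 alternatives (HNRNPU, HNRNPH1, HNRNPR, HNRNPAB, HNRNPD, HNRNPA1 and SRSF1), and of the 5 rises, 0 were; the cause was not tested. SRSF8 and HNRNPA0 lie near the filter, at 1.85 to 2.60 RPKM, and there are 3 libraries a group; what limits the calls was not tested.

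Without the filter on low values, SRSF8, HNRNPL, HNRNPA0, HNRNPUL1, HNRNPF, PRPF31, PRPF19 and SNRPN lost their calls (adjusted p from 0.0513 to 0.113, limma); 2 members rose and 9 fell, with 6 falls among the hnRNPs, 0 rises among the SR, PRPF and SNRP genes, 7 falls among the other RNA-binding regulators, 2 falls among the U1 and U2 partners, 3 rises in the PRP19 list and 0 rises in the exon junction list; of the partners named, SRPK1, MBNL3, ELAVL1, TARDBP, SNRNP70, ALYREF, THOC5 and HNRNPA2B1 lost their calls (adjusted p from 0.0519 to 0.119, limma). The fit without the filter adjusted over all 33707 genes, of which 870 rose and 846 fell. Median-of-ratios scaling called 2 SR falls, 1 SF3 and U2AF fall, 2 falls in the SMN list, 1 fall among the hepatoma markers and 4 rises in the PRP19 list. Quantile normalization called 3 SR falls and 1 fall in the SMN list. Over all genes tested, rises and falls numbered 1387 and 1431 with median-of-ratios scaling and 1462 and 1408 with quantile normalization. With limma-voom they numbered 2065 and 1756. Limma-voom called 4 SR falls, 2 PRPF rises, 1 SNRP fall, 2 rises among the other RNA-binding regulators, 2 rises and 2 falls in the SMN list, 6 falls in the exon junction list and 2 rises and 2 falls among the hepatoma markers.

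With 1 library left out, 0 to 2 members rose and 7 to 11 fell. Over all genes tested, 895 to 1193 then rose and 885 to 990 fell, against 1539 and 1296 with all libraries. By class, hnRNP falls ran from 6 to 8, SR rises from 0 to 1, SF3 and U2AF rises from 0 to 2, PRPF rises from 0 to 1, PRPF falls from 0 to 3 and SNRP rises from 0 to 1. By list, falls ran from 7 to 9 (other RNA-binding regulators), 2 to 3 (U1 and U2 partners), 3 to 5 (PRP19) and 1 to 4 (exon junction), and rises from 2 to 5 (PRP19), 0 to 1 (exon junction) and 0 to 1 (hepatoma markers). The members that rose numbered 0 without mimics-NC replicate 2, and the fewest falls, 7, came without mimic replicate 1.

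The replicate numbers are shared between the groups, but same-numbered libraries did not deviate together (r of -0.052, -0.016 and 0.023). Libraries with different numbers gave r from -0.113 to 0.121. With 3 libraries a group, such values cannot tell whether the replicates were prepared in pairs. Over all genes tested, the fit with a replicate block called 1034 rises and 942 falls. With the replicate block, SRSF8, HNRNPL, HNRNPA0, HNRNPUL1, HNRNPF, SF3A3, PRPF19 and SNRPN lost their calls (adjusted p from 0.0533 to 0.0877, limma), so that 1 member rose and 10 fell; 6 hnRNPs fell, 1 SF3 and U2AF gene rose, 0 SR, PRPF and SNRP genes rose, 3 genes of the PRP19 list fell and 4 rose, and 0 of the exon junction list rose.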

Other observations

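Copies of the members held reads of their own. The 8 pseudogene rows of SNRPG, a protein of the Sm ring, held 32.4% to 38.9% of the reads of SNRPG and its copies together, and SNRPGP2 alone was at 103.8 to 138.5 RPKM against 28.6 to 36.7 RPKM for SNRPG. The level of SNRPG is thus uncertain, since reads could be split between near-identical copies. The 13 rows of HNRNPA3 copies held 1.44% to 2.13% and the 7 rows of HNRNPC copies 1.201% to 1.55%.

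Several members share exons with a gene on the opposite strand, and without a stated strand setting their reads cannot be told apart. SRSF9 shares 46.2% of its length with GATC and SRSF2 36.7% with MFSD11. PRPF31, which fell, shares 22.0% with AC012314.8 and 9.95% with TFPT. HNRNPUL2 shares 44.5% with the same-strand readthrough gene HNRNPUL2-BSCL2, which was at 80.3 ± 0.942 and 78.9 ± 1.86 RPKM (SD, n = 3).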
